A study of Mus musculus with 6 samples.

Results

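The NF-κB family in mouse comprises 5 genes, Rela, Rel, Relb, Nfkb1 and Nfkb2, and the peaks around these genes were examined in mouse macrophages derived from bone marrow (BMDMs) and profiled by CUT&RUN. The 5 genes were listed by name among 21938 protein-coding genes, and each was given a window made of its gene body and 50 kb on either side. The windows held 141 of the 142059 peaks in 4 peak lists. Of these 141 peaks, 10 came from the LPS H3K27ac list, 0 from the PBS H3K27ac list, 64 from the LPS H3K4me1 list and 67 from the PBS H3K4me1 list. All positions are in GRCm38, and distances are counted in the direction of transcription from the first annotated start of the gene (GENCODE M21), with negative values upstream.

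BMDMs from C57BL/6 mice were grown from marrow in L929-conditioned medium and exposed for 1 h to LPS (lipopolysaccharide, the bacterial product sensed by TLR4) or with PBS as the unstimulated control. No other strain or genotype was named for the libraries of either treatment, and the number of mice behind each library was not given in the sources used here. CUT&RUN sequences the DNA cut out around an antibody's target by a nuclease that the antibody brings there. H3K27ac is an acetylation of histone H3 found at active promoters and enhancers, and H3K4me1 is a methylation of histone H3 typical of enhancers. The 6 samples were 1 library per treatment for each of the 2 marks and for control IgG, and the 2 IgG libraries were not analysed on their own. With 1 library per group there was no replicate error, no test between treatments was possible, and every difference below is one between 2 single libraries.

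NF-κB proteins share a Rel homology domain that binds DNA and joins them into pairs. RelA (p65, from Rela), c-Rel (from Rel) and RelB carry a transactivation domain, whereas Nfkb1 and Nfkb2 encode the precursors p105 and p100, which are processed to the DNA-binding subunits p50 and p52. In resting macrophages the dimers are held in the cytoplasm by IκB proteins. LPS acts through TLR4 and its adaptors on the IκB kinase complex, which marks IκB for degradation and frees the dimers to bind κB sites in DNA. Several NF-κB subunit and inhibitor genes are themselves known κB-regulated genes, and processing of p100 belongs to a slower, non-canonical branch of the pathway.

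The libraries differed widely in their lists. The H3K4me1 lists held 73049 peaks under LPS and 64758 under PBS. The H3K27ac lists held 4200 peaks under LPS and 52 under PBS. A rough estimate of all fragments in the library, from the background control level at the peaks, was 5660000 under LPS and 7210000 under PBS. The PBS estimate rests on the 52 listed peaks. The smallest −log10 p in the H3K27ac lists was 5.23 under LPS and 6.91 under PBS. Markers of macrophages were checked first. Of 12 macrophage marker genes, 12 had an LPS H3K4me1 peak and 11 a PBS H3K4me1 peak within 10 kb of a start. The numbers were 4 and 2 of 6 for T cell markers, 3 and 2 of 6 for B cell markers, 3 and 2 of 6 for neutrophil markers, 2 and 2 of 6 for fibroblast markers and 1 and 1 of 6 for epithelial markers. Over all protein-coding genes the shares were 52.0% under LPS and 45.9% under PBS. Under LPS the T cell, B cell and neutrophil numbers were thus close to or above what all genes showed. An LPS H3K27ac peak lay within 10 kb of a start at 3 of 12 macrophage and 1 of 6 T cell markers, and at no other marker. Over all genes that share was 10.9%.

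The 2 kinds of sequence that follow are shown because the results refer to them. The first is DNA with a match to the NF-κB consensus site (κB), in capitals, on the strand of the gene. The promoter sequences of RefSeq (GRCm38.p6) covered 3 of the 5 genes in 5 entries, each 250 bases before to 50 after a start, and all 5 entries were equal to the genome sequence read by coordinates. Rel had a κB match 91 bases upstream of its start, and the promoter is shown up to the base before the start, chr11:23770971-23771219. The 30 bases around each further match follow: in the H3K27ac peak at the Rela start (chr19:5637888-5637917), in the H3K27ac peak near the Map3k11 start (chr19:5692137-5692166), and in the Nfkb2 promoter entries at +378 (chr19:46304688-46304717), +406 (chr19:46304716-46304745), +1139 (chr19:46305449-46305478) and +1385 (chr19:46305695-46305724). In capital runs longer than 10 bases, matches on either strand overlap one another.
Rel promoter: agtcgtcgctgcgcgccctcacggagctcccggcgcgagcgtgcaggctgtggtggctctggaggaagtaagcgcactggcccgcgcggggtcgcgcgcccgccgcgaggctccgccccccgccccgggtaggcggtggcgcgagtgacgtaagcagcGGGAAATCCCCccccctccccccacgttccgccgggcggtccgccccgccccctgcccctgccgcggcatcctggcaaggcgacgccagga
Rela +415: ggcctgcggcGGAATCTCCCccctccccgc
Map3k11, Rela +54663: ctagcctgaGGGGGATTCCCCgaaggccca
Nfkb2 +378: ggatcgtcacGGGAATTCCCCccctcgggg
Nfkb2 +406: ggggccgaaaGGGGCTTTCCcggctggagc
Nfkb2 +1139: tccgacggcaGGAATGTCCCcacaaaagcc
Nfkb2 +1385: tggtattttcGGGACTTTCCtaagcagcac

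The second kind is the DNA of the H3K27ac peaks that lay on both sides of the Rel and Nfkb1 starts, with no κB match and therefore no capitals, and 300 bases centred on the summit of the strongest H3K4me1 peak of all windows by rank in its list, in the first part of Nfkb1. The Rel peaks are chr11:23771888-23772164 and chr11:23769969-23770120, the Nfkb1 peaks chr3:135691813-135691990 and chr3:135690703-135690924, and the H3K4me1 summit chr3:135683449-135683748, all read on the minus strand.
Rel -977: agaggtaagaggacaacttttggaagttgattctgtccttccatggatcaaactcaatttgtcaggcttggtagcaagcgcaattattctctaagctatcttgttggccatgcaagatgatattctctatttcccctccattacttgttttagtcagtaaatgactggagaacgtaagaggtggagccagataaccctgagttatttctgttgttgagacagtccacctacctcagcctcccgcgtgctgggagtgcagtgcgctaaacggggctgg
Rel +965: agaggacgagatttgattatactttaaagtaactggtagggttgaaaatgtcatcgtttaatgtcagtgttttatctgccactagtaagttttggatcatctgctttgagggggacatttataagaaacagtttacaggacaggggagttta
Nfkb1 -272: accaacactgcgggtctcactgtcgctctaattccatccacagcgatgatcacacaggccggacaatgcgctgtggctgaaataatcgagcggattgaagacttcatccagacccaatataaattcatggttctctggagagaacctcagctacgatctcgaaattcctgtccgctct
Nfkb1 +740: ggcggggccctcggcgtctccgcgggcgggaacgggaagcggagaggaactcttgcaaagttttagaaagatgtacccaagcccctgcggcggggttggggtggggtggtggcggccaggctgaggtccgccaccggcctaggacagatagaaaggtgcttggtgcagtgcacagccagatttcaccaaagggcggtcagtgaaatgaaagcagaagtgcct
Nfkb1 +7948: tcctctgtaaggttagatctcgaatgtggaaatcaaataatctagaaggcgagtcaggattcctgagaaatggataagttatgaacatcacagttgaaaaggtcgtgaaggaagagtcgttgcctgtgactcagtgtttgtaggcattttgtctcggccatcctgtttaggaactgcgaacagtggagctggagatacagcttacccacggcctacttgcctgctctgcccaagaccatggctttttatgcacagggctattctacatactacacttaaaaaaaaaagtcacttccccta

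H3K27ac peaks were listed at the starts of 3 of the 5 genes in LPS-treated BMDMs and at none of the 5 in PBS-treated BMDMs. Rela had 1 peak within 1 kb of a start, Rel 2 and Nfkb1 2, whereas Relb and Nfkb2 had 0. Over all protein-coding genes this held for 6.14% in the LPS H3K27ac list and 0.0957% in the PBS H3K27ac list. Within 10 kb of a start the same 3 genes had an LPS peak, against 10.9% of all genes, and 0 of 5 had a PBS peak, against 0.201%.

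In the whole window, 4 of the 5 genes had an LPS H3K27ac peak, against 27.7% of all protein-coding genes. Rela and Relb had 3 peaks each, and 1.86% of genes had more. These counts are not corrected for window length or content. Starts of 6 and 7 protein-coding genes lay in these 2 windows, and with 10 kb on each side Rela had 1 peak and Relb 0. Rel and Nfkb1 had 2 each, and 4.21% of genes had more. Nfkb2 had none, as had most genes. No window held a PBS H3K27ac peak, against 0.588% of genes with one, and the nearest lay 5.62 Mb from the Relb start, 8.08 Mb from Nfkb2, 23.4 Mb from Nfkb1, 25.3 Mb from Rel and 48.7 Mb from Rela. With 52 peaks in the PBS list, an absence there is what nearly every gene showed. Over the whole LPS H3K27ac list 0.357% of peaks were overlapped by a PBS H3K27ac peak, and of the 10 in the windows 0 were. Of those 10, 8 had a −log10 p of at least 6.91, the smallest in the PBS list. What set the sizes of both H3K27ac lists was not tested.

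**Figure D1:**
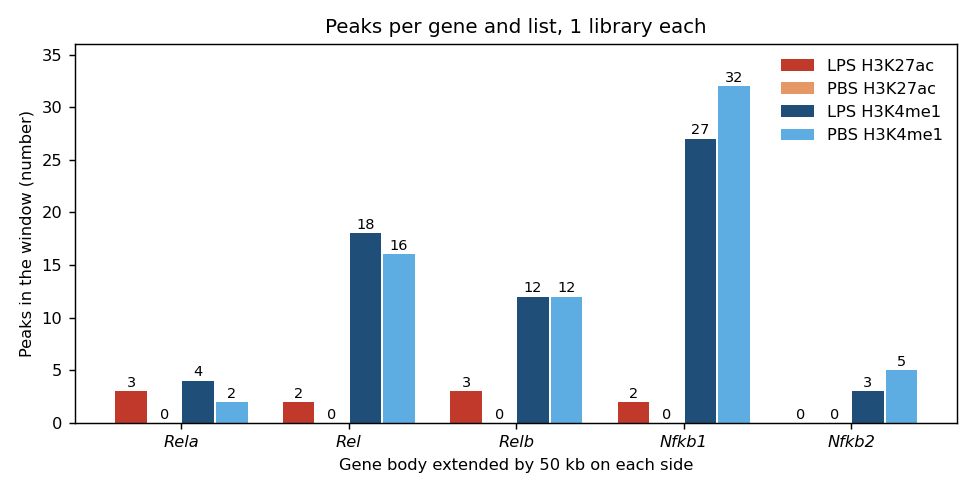
Number of peaks in the window of each NF-κB subunit gene (gene body and 50 kb on each side), as bars for each of the 4 peak lists, with 1 library per list and no error bar. LPS H3K27ac bars stand at 2 or 3 for 4 genes and at 0 for Nfkb2, PBS H3K27ac is at 0 throughout, and the H3K4me1 bars of Nfkb1 reach 27 under LPS and 32 under PBS.

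Rela encodes p65, the transactivating partner of p50 in the classical dimer. The gene is 10.6 kb long (ENSMUSG00000024927.8, chromosome 19, 5637483 to 5648130, plus strand) and has 7 annotated starts. Its LPS H3K27ac peak was 140 bp wide (5637783 to 5637922), with the summit at +363, 17 bp downstream of one of the annotated starts and in an intron of the gene. The summit held 19 fragments (95% Poisson interval 11.4 to 29.7, counting error only, as for all such intervals below). The fold enrichment, with 1 added to the summit and control levels, was 6.65, and the peak ranked 248 of 4200 by −log10 q (8.04). This was the highest rank among the 10 peaks of the windows. The κB match shown above at +415 lay inside this peak, and 77.1% of its bases were G or C. The RefSeq promoter of Rela, which ends before the peak begins, had no κB match.

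The other LPS H3K27ac peaks of the Rela window were at the starts of its neighbours. One of 132 bp (5610116 to 5610247) had its summit at −27272 and 26 bp inside Kat5, which encodes a histone acetyltransferase, in an untranslated exon. It held 18 fragments (10.7 to 28.4) at 6.32-fold and ranked 350. The other, of 145 bp (5692039 to 5692183), was 54652 bp downstream of the Rela start, in an intron of Map3k11 and at −760 from a Map3k11 start. Map3k11 encodes a kinase of the JNK pathway. This summit also held 18 fragments, but over a higher control level, which gave 4.21-fold and rank 1831. Rela was thus 1 of 3 genes of its window with acetylation listed at a start, of the 6 protein-coding genes that start there.

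Rel encodes c-Rel, the subunit best known from lymphocytes and myeloid cells. The gene is 34.1 kb long (ENSMUSG00000020275.9, chromosome 11, 23736847 to 23770970, minus strand) with 1 annotated start, and both LPS H3K27ac peaks of its window flanked that start. The downstream peak was 152 bp wide (23769969 to 23770120), with its summit at +965 in the first part of the gene, in an intron. It held 9 fragments (4.12 to 17.1) at 6.57-fold and ranked 1049 of 4200. The upstream peak was 277 bp wide (23771888 to 23772164), with its summit at −977, and was the widest of the 10. It held 7 fragments (2.81 to 14.4) at 5.02-fold and ranked 3084. Between them lay the promoter with its κB match at −91, 75.0% G or C, in which no peak of any list was found. The peaks themselves were 36.8% and 46.2% G or C, and 33.9% of the upstream one was repeat-masked.

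Nfkb1 encodes p105, the precursor of p50. It is the longest of the 5 genes at 107 kb (ENSMUSG00000028163.17, chromosome 3, 135584655 to 135691547, minus strand), with 10 annotated starts, most of them far inside the gene. As at Rel, the LPS H3K27ac peaks lay on both sides of the first start. The downstream peak was 222 bp wide (135690703 to 135690924), with its summit at +740 in an intron, and held 14 fragments (7.65 to 23.5) at 5.99-fold, rank 808. The upstream peak was 178 bp wide (135691813 to 135691990), with its summit at −272, and held 8 fragments (3.45 to 15.8) at 4.35-fold, rank 3702. The downstream peak was thus listed with the higher rank at both genes, though within each pair the intervals of the fragment counts overlapped. A summit within 1 kb on each side of the first start was found at 2 of the 5 genes, Rel and Nfkb1, and at 65 of 21938 protein-coding genes, 0.296%. The pattern was taken from the positions seen at these 2 genes, so the share of all genes is a description and no test. The upstream peaks of both pairs were weak, with −log10 p values of 6.64 at Rel and 5.71 at Nfkb1, and the pairs depended on them. With a −log10 q of at least 5, or a −log10 p of at least 6.91, 0 of the 5 genes and 17 or 52 of all genes had a summit on each side. None of the peaks of the pairs held a κB match, and RefSeq promoter sequences of Nfkb1 and Relb were not used here.

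Relb encodes RelB, the subunit that pairs with p52 in the non-canonical branch. The gene is 23.2 kb long (ENSMUSG00000002983.17, chromosome 7, 19606217 to 19629438, minus strand) with 5 annotated starts within about 1 kb of each other. No peak of any list lay within 10 kb of a Relb start, and its 3 LPS H3K27ac peaks were all beyond the end of the gene. The nearest to Relb, of 150 bp (19594122 to 19594271), was at +35234 in a non-coding exon of Clasrp, which encodes a splicing-related protein, and held 11 fragments (5.49 to 19.7), rank 844. One of 152 bp (19572572 to 19572723) was at +56801, 331 bp inside Gemin7, whose product takes part in assembling splicing ribonucleoproteins, and held 10 fragments (4.8 to 18.4), rank 1911. The third, of 141 bp (19562266 to 19562406), was at +67095, 733 bp inside Ppp1r37 in an untranslated exon, and held 13 fragments (6.92 to 22.2), rank 1119. The acetylation in this window was therefore at or near the starts of other genes. Nfkb2, which encodes p100, is the shortest gene at 8.07 kb (ENSMUSG00000025225.15, chromosome 19, 46304320 to 46312385, plus strand), and its window of 108 kb held no H3K27ac peak. Its promoter entries held κB matches, and more sequence was searched for it, with 3 entries that partly overlap, than for Rel and Rela with 1 each.

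Of the 10 LPS H3K27ac peaks, 5 lay within 1 kb of a start of an NF-κB subunit gene and 4 within 1 kb of a start of another protein-coding gene, so that 9 of 10 were promoter peaks. None of the 10 was overlapped by an H3K4me1 peak of either treatment. Over the whole LPS H3K27ac list 33.6% of peaks were overlapped by the LPS H3K4me1 list, 29.9% by the PBS H3K4me1 list and 39.3% by either. For H3K27ac peaks within 1 kb of a protein-coding start these shares were 18.1%, 11.6% and 22.1%. The shares of the whole list lay above the interval of 0 to 27.8%, and the promoter shares lay within it. With 9 of 10 being promoter peaks, these 10 peaks do not set these genes apart from other promoters. The smallest gap was 487 bp, between the Nfkb1 peak at −272 and a PBS H3K4me1 peak further upstream. At Rel the downstream H3K27ac peak was 1742 bp from PBS H3K4me1 and 6236 bp from LPS H3K4me1, and at Rela the gaps were 25747 and 24111 bp.

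**Figure D2:**
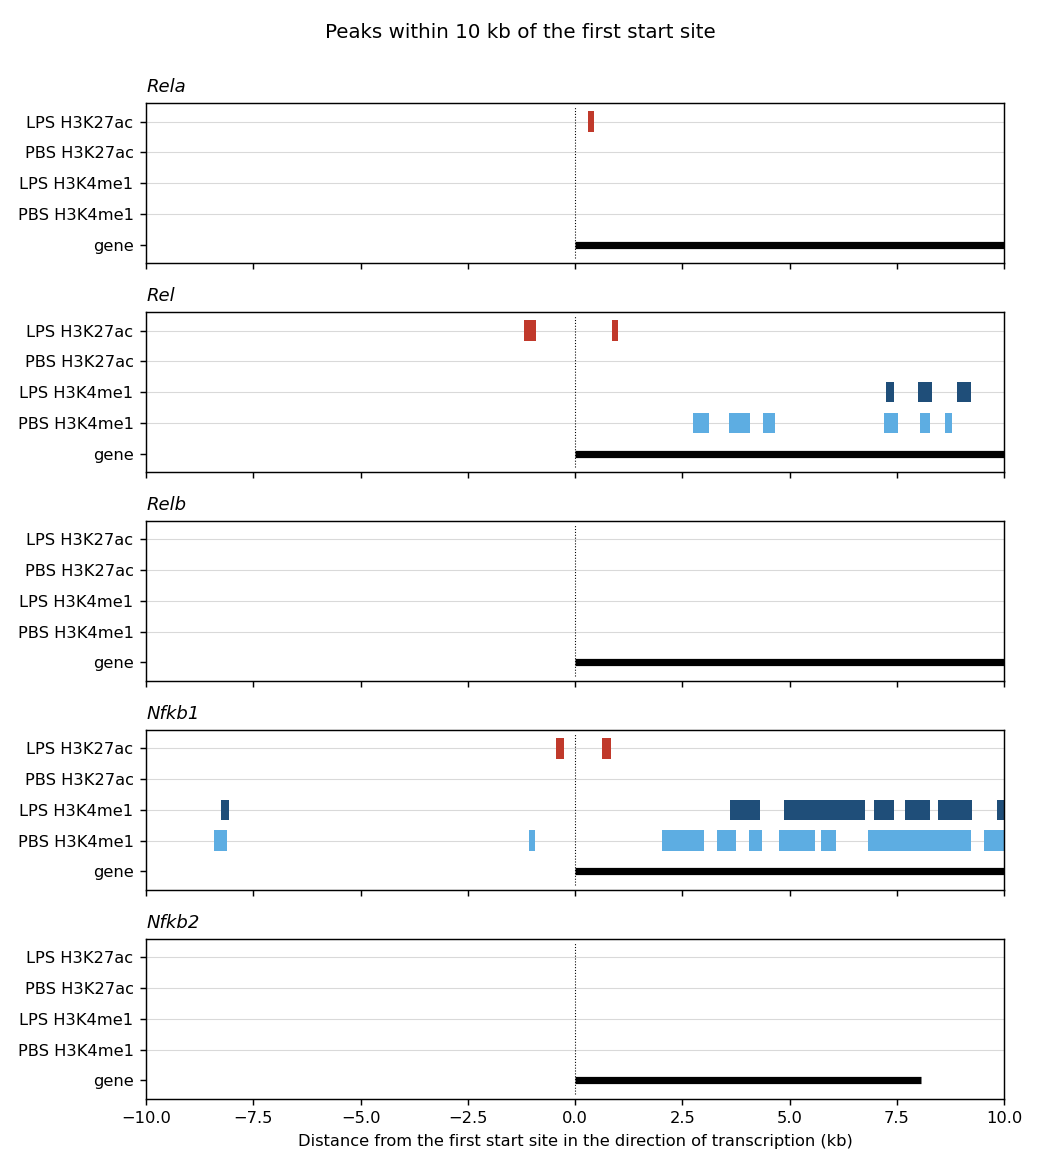
Peaks within 10 kb of the first start of each gene, as blocks drawn to scale in 1 row per list, with the distance from the start in kb in the direction of transcription on the x axis and the gene body as a black bar. LPS H3K27ac blocks stand on both sides of the Rel and Nfkb1 starts and just inside Rela, the H3K4me1 blocks of both treatments lie farther inside Rel and Nfkb1 except for those upstream of the Nfkb1 start (PBS at −985 and −8161, LPS at −8189), and the rows of Relb and Nfkb2 are empty.

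κB matches were set beside their frequency elsewhere, with both strands searched. In windows of 300 bases centred on the summits, 2 of the 10 LPS H3K27ac windows held a κB match (those at Rela and Map3k11), against 7.79% over the whole list. Of all RefSeq promoter entries of the same length, 8.46% held one. Among the member promoters, Rel and Nfkb2 had matches and Rela had none. The Rel promoter also held 5 GC boxes (GGGCGG, in 35.7% of all promoters) and 1 PU.1 core (GAGGAAGT, in 3.2%), and none of these overlapped its κB match. The H3K4me1 summits of the windows held a κB match in 4 of 64 windows under LPS (6.25%) and in 5 of 67 under PBS (7.46%), next to 6.36% and 6.07% over the whole lists. The AP-1 site (TGANTCA) was found at 9.38% and 13.4% of these summits, next to 14.0% and 13.5%. A match is a description of the letters and not a bound site.

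H3K4me1 was listed in the window of each of the 5 genes in both treatments, as in 74.1% of protein-coding genes under LPS and 70.7% under PBS. The windows differed far more from each other than the treatments did. Nfkb1 had 27 peaks under LPS and 32 under PBS, Rel 18 and 16, Relb 12 and 12, Rela 4 and 2, and Nfkb2 3 and 5. The medians over all genes were 4 under LPS and 3 under PBS. Per 100 kb of window, which takes out the length of the gene, Rel had 13.4 and 11.9 peaks, Nfkb1 13.1 and 15.5, Relb 9.74 and 9.74, Rela 3.62 and 1.81, and Nfkb2 2.78 and 4.63. Nfkb1 and Rel were close in density under LPS, and Nfkb1 was higher under PBS. Fewer genes had more peaks than Nfkb1 (3.3% under LPS and 1.63% under PBS) than had more than Rel (9.2% and 9.32%).

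H3K4me1 peaks lay mostly inside the gene at Nfkb1, both inside and outside it at Rel, and outside it at the other 3 genes. Nfkb1 had 23 of 27 LPS peaks and 26 of 32 PBS peaks in the gene body, and Rel 7 of 18 and 9 of 16. Rela, Relb and Nfkb2 had 0 in the gene body in both treatments. Within 10 kb of a start, H3K4me1 peaks were found at 2 of the 5 genes in each list, Rel and Nfkb1, against 52.0% of all genes under LPS and 45.9% under PBS. Within 1 kb of a start they were found at 1 of 5, Nfkb1, against 32.1% and 23.7%.

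The first starts themselves lay in stretches without H3K4me1 peaks. From the nearest peak upstream to the nearest downstream, the stretch around the Nfkb1 start spanned 11667 bp in the LPS list and 2963 bp in the PBS list. Around the Rel start it was 41643 and 37788 bp, around Rela 49966 and 59244 bp, and around Relb 60150 and 62309 bp. The longest was at Nfkb2, with 148780 and 141454 bp, and it covered the gene and everything upstream in its window. The medians over all genes were 82291 and 119201 bp, so that 4 of the 5 starts lay in shorter stretches than the median gene in both lists. On the downstream side the PBS list came nearer to the start than the LPS list at Nfkb1 (2033 against 3603 bp) and at Rel (2743 against 7237 bp).

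**Figure D3:**
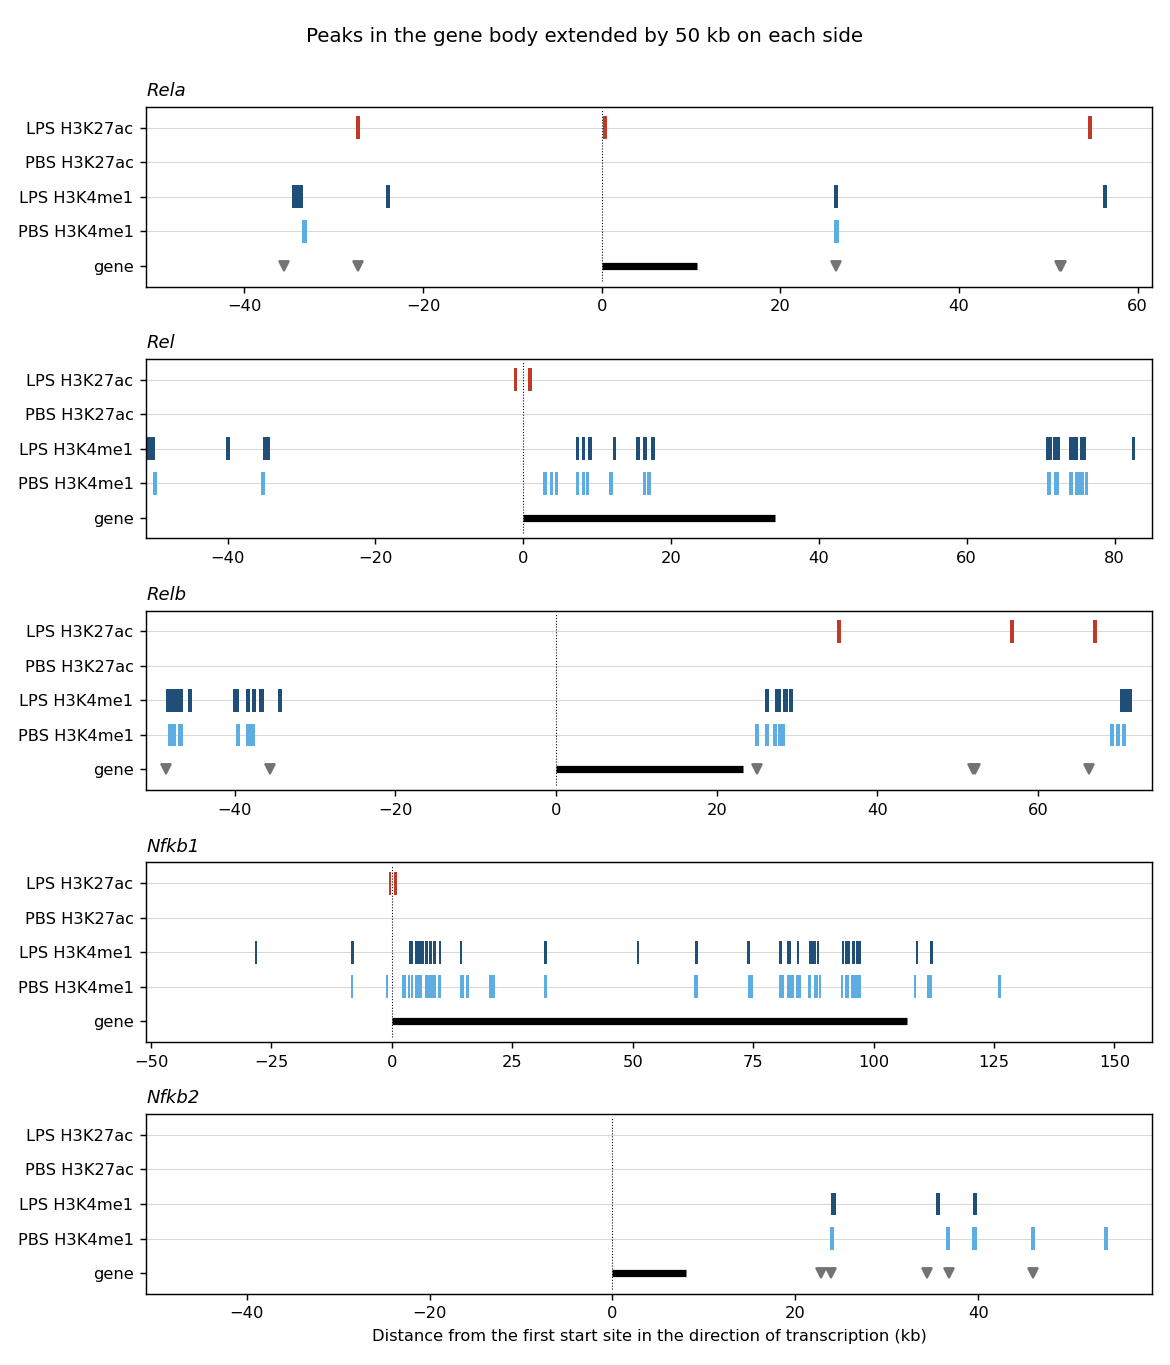
All 141 peaks in the windows of the 5 genes, as blocks in 1 row per list, with the distance from the first start in kb in the direction of transcription on the x axis of each panel, the gene body as a black bar and the first starts of neighbouring protein-coding genes as grey triangles. H3K4me1 rows are filled inside Nfkb1 and Rel and empty inside Rela, Relb and Nfkb2, and the H3K27ac row of Nfkb2 has no block.

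Inside Nfkb1 the H3K4me1 peaks formed a group in the first 10 kb and another between about 80 and 97 kb, with single peaks between them, in both treatments. The strongest was a PBS peak of 2391 bp (135682328 to 135684718), with its summit at +7948 in an intron, whose sequence is shown above. It held 47 fragments (34.5 to 62.5) at 20.3-fold and ranked 10 of 64758, the highest rank that any of the 141 peaks reached in its list. The LPS list held 3 peaks over the same stretch. The one nearest the PBS summit, of 576 bp at +8020, held 30 fragments (20.2 to 42.8) at 12.7-fold and ranked 2742 of 73049, and the others held 27 and 18 fragments. The intervals of the nearest pair overlapped, so that a difference was not resolved at this depth. Some 3 kb closer to the start, the LPS list had a peak of 1889 bp at +4954 with 29 fragments (19.4 to 41.6) and the PBS list one of 830 bp at +4970 with 32 fragments (21.9 to 45.2), at nearly the same position.

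Near the Nfkb1 start the PBS list went further. It held a 971 bp peak at +2388 with 18 fragments (10.7 to 28.4) and a 142 bp peak at −985 with 11 fragments (5.49 to 19.7), and neither was overlapped in the LPS list. The second was the single H3K4me1 peak within 1 kb of the first start of any of the 5 genes. The remaining promoter peaks of Nfkb1, 8 under LPS and 7 under PBS, were at its internal starts. Under LPS their summits at +82215, +84228, +86780, +87151, +87758, +88227, +96587 and +97105 held 24, 18, 16, 10, 21, 26, 17 and 12 fragments. Under PBS the summits at +82635, +84233, +86950, +88315, +88784, +96566 and +97039 held 27, 23, 28, 39, 17, 26 and 19. The first and the last starts of this row thus had listed peaks in both treatments at nearly the same places, and the PBS peaks at +82635 (1481 bp) and +96566 (1460 bp) were the widest there. The highest of them by rank was a PBS peak of 960 bp at +88315 with 39 fragments (27.7 to 53.3), rank 619. In the LPS list the 596 bp peak at +88227 held 26 fragments (17.0 to 38.1). Next to this group, the highest LPS peak of the window was 1122 bp wide at +94690 with 31 fragments (21.1 to 44.0), rank 1886, and the PBS list had a 910 bp peak at +94359 with 39 fragments (27.7 to 53.3). Of the Nfkb1 peaks, 23 of 27 under LPS (85.2%, 95% Wilson interval 67.5 to 94.1) had a PBS counterpart. In the other direction 22 of 32 did (68.8%, 51.4 to 82.0). The peaks covered 13.2 kb under LPS and 19.5 kb under PBS, and median widths were 405 and 455.5 bp.

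**Figure D4:**
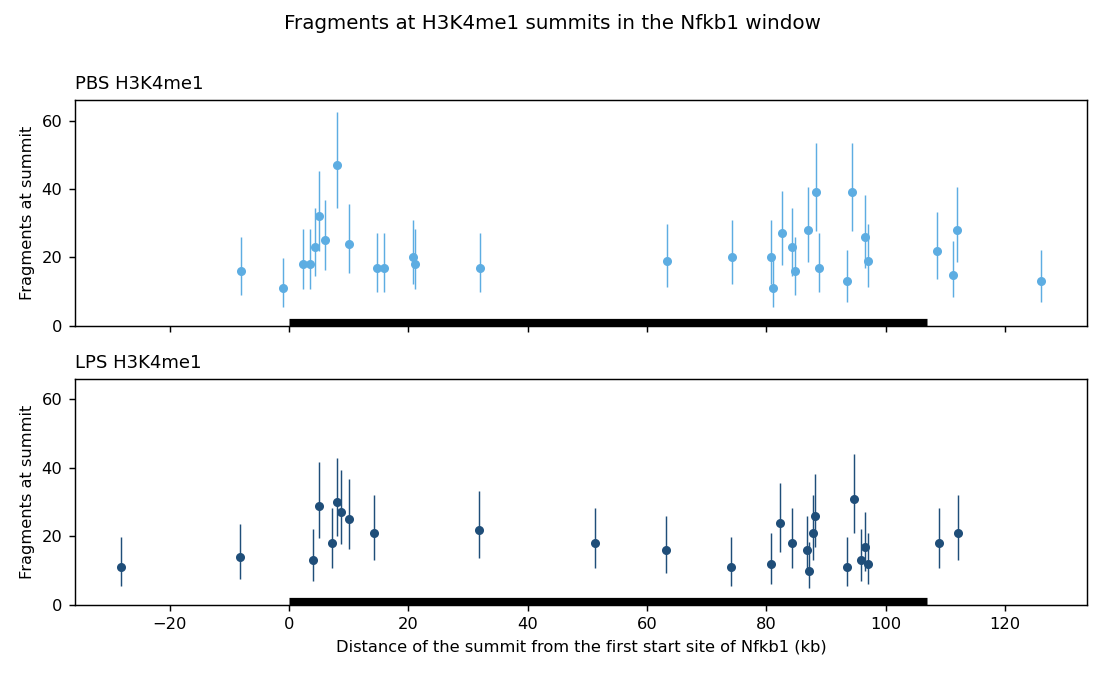
Fragments at the summit of each H3K4me1 peak in the Nfkb1 window (points, 1 per peak, with 95% Poisson intervals as lines), against the distance of the summit from the first start in kb, for the PBS library above and the LPS library below, with the gene as a black bar on the axis. The highest PBS point, 47 fragments at about 8 kb, stands above the highest LPS point, 31 fragments near 95 kb, and both libraries have a group of points in the first 10 kb and another between 80 and 97 kb.

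Inside Rel the PBS list again held peaks nearer the start. Those at +3017, +4007 and +4577 held 13, 12 and 13 fragments and had no counterpart in the LPS list, where the first peak, at +7362 with 14 fragments (7.65 to 23.5), was matched by a PBS peak at +7367 with 14. Farther in, the LPS list had peaks at +8977, +12386, +15513 and +17636 with 10 to 12 fragments that the PBS list did not overlap. The PBS list had peaks at +8745, +11953 and +17207 with 10, 11 and 14 fragments that the LPS list did not overlap. Most of these were neighbours in the 2 lists. The LPS peaks at +8977, +12386 and +17636 lay 121, 234 and 79 bp from the PBS peaks at +8745, +11953 and +17207. Except for the PBS peak at +17207, which ranked 25390 of 64758, the peaks without overlap farther in held 10 to 12 fragments. The median H3K4me1 summits of the 5 windows held 16 under LPS and 17 under PBS. The strongest H3K4me1 peaks of the Rel window lay outside the gene. A PBS peak of 1160 bp (23695098 to 23696257) was at +74978 in an intron of Pus10, which encodes a pseudouridine synthase, and held 26 fragments (17.0 to 38.1), rank 3040. The next widest PBS peaks, of 723 bp at +71882 and of 574 bp at +71235 in the same gene, held 21 and 16. The LPS list had 2 peaks over the first, of 838 bp with 20 fragments and of 1208 bp with 22. The widest LPS peak, of 2225 bp (23820716 to 23822940), was at the upstream edge of the window with its summit at −50895 and held 27 fragments (17.8 to 39.3), rank 8192. A PBS peak of 258 bp with 17 fragments overlapped it. Of the Rel peaks, 11 of 18 under LPS (61.1%, 38.6 to 79.7) and 10 of 16 under PBS (62.5%, 38.6 to 81.5) were overlapped by the other treatment.

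In the Relb window H3K4me1 lay over the neighbouring genes on both sides. The peak of highest rank in the LPS list was 1470 bp wide (19557735 to 19559204), at +70867 in an intron of Ppp1r37, and held 42 fragments (30.3 to 56.8), rank 964 of 73049. The PBS peak over it was 521 bp wide and held 27 fragments (17.8 to 39.3). The next LPS peaks were one of 832 bp at −39671, upstream of Clptm1, and one of 2053 bp at −47441, at the Apoc2 start, with 32 fragments each (21.9 to 45.2). PBS peaks overlapped both, with 24 fragments at the first and 25, 13 and 12 at the peaks within the second. The PBS peak of highest rank was a narrow one of 221 bp (19604378 to 19604598) at +24901, at −51 from a Clasrp start, with 20 fragments (12.2 to 30.9), rank 8925, and no LPS peak overlapped it. The widest PBS peaks, of 1144 bp at −38053, 899 bp at +28467 and 525 bp at +26223, held 19, 21 and 11 fragments, and each had an LPS counterpart. Numbers of peaks were thus equal at 12 and 12, while the covered length was 8.7 kb under LPS and 5.26 kb under PBS. Overlapped were 8 of 12 LPS peaks and 9 of 12 PBS peaks.

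Rela and Nfkb2 had the fewest H3K4me1 peaks, and none of them lay in the gene itself. In the Rela window the widest was an LPS peak of 1219 bp at −33737, by the starts of Rnaseh2c and Kat5, with 15 fragments (8.4 to 24.7), and a PBS peak of 419 bp with 17 fragments overlapped it. Both lists had a narrow peak at the Sipa1 start, of 156 and 158 bp, with 18 fragments each. The other LPS peaks, of 297 bp at −23847 and of 405 bp at +56259 inside Map3k11, were not overlapped under PBS and held 14 and 12 fragments. In the Nfkb2 window all peaks lay downstream, from Fbxl15 to Mfsd13a. The one of highest rank was a 242 bp PBS peak at +39606 with 21 fragments (13.0 to 32.1), rank 8765, which overlapped a 417 bp LPS peak with 17 fragments (9.9 to 27.2). The Fbxl15 peaks, with 11 fragments under LPS and 12 under PBS, also overlapped. The other LPS peak (457 bp at +35536, 19 fragments) and the other 3 PBS peaks (208 bp at +36767, 182 bp at +46030 and 259 bp at +54013, with 22, 12 and 13 fragments) had no overlap.

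Over all 5 windows, 46 of 64 LPS H3K4me1 peaks (71.9%, 95% Wilson interval 59.9 to 81.4) had an overlapping PBS peak, against 61.2% of the whole LPS list. In the other direction, 45 of 67 PBS peaks (67.2%, 55.3 to 77.2) were overlapped by an LPS peak, against 73.1% of the whole PBS list. Both shares of the whole lists lay within these intervals. The Wilson intervals here and above take peaks as independent, although many were close neighbours. With peaks within 1000 bp merged, 36 remained under LPS and 33 under PBS, so the intervals are a description and no test against the whole lists. The covered length was 33.3 kb under LPS and 32.8 kb under PBS. By gene the LPS library covered more at Relb (8.7 against 5.26 kb), Rel (8.18 against 6.44 kb), Rela (2.08 against 0.577 kb) and Nfkb2 (1.14 against 1.04 kb), and the PBS library more at Nfkb1. Whether these differences exceed the spread between cultures was not tested.

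Other genes of the pathway were taken from 4 lists of 62 genes, all of which were found in the annotation. Within 10 kb of a start, 27 of the 62 had an LPS H3K27ac peak and 0 had a PBS H3K27ac peak. By role these were 6 of 12 inhibitors and IκB family genes, 6 of 14 genes of the IκB kinase complex and its activators, 7 of 16 receptors and adaptors and 8 of 20 target genes. The subunit genes, with 3 of 5, are to be read beside these counts and beside the 10.9% of all genes. H3K4me1 was near 55 of the 62 genes under LPS and 59 under PBS, beside 52.0% and 45.9% of all genes and 2 of the 5 subunit genes in each list. The lists hold genes chosen for their known part in this pathway and earlier results of these data were known when they were written, so their counts are a description.

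Among these genes, those with most LPS H3K27ac peaks in the window of gene body and 50 kb were Tnfaip3 with 6, which encodes the deubiquitinase A20 that limits NF-κB signalling, Tnip2 with 5, Nfkbid with 4 and Nfkbib with 3, which encodes IκBβ. Of the kinase list, Rnf31, a subunit of the linear ubiquitin ligase complex, had 3, and Ikbkg, which encodes NEMO, Map3k8 and Tab1 had 2 each. Of the receptors and adaptors, Ripk1, Ticam1 and Tradd had 2, and Irak2 had 1, as had Irak3, Myd88, Tirap, Tlr4, Traf1 and Traf3. Of the target genes, the chemokine genes Ccl3 and Ccl4 had 5 each, Birc3 had 3, and Il1b and Tnf had 2 each. Rela and Relb with 3 peaks, and Rel and Nfkb1 with 2, were thus within the range of these genes, which were named for having most peaks. Nfkb2 had 0. The median over the whole list was 1 for the inhibitors and for the receptors and adaptors, and 0.5 for the kinase list and the target genes. At least 1 LPS H3K27ac peak lay in the window of 36 of the 62 genes. Ccl3 and Ccl4 are neighbours whose windows share peaks.

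Likeness was measured as the Euclidean distance over the 4 lists between log2 of the number of peaks in the window plus 1. Nfkb1 was closest to Map3k8, which encodes a kinase held in complex with p105, at a distance of 0.12, with 2, 0, 25 and 33 peaks in the LPS H3K27ac, PBS H3K27ac, LPS H3K4me1 and PBS H3K4me1 lists. Its next was Tlr4, at 0.62. Rel was closest to Tnf (0.26, with 2, 0, 15 and 15 peaks) and to Ripk1 (0.32), and Relb to Tradd (0.52) and Tnf (0.59). Rela was closest to Ikbkg (0.53, with 2, 0, 3 and 2 peaks) and to Il1b (1.28), and Nfkb2 to Chuk and Sod2 (0.26 each, with 0, 0, 3 and 4 peaks). With 4 numbers per gene, 1 of them 0 at nearly every gene, this measure orders the genes and tests nothing.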

How the data were processed

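The peaks were those of CUT&RUN libraries of BMDMs, 1 library per treatment and antibody, and groups were taken from the sample labels. In the study's methods the authors describe trimming of reads, alignment to GRCm38 with Bowtie2 2.4.4, removal of blacklisted regions and peak calling per library with MACS2 2.2.7.1. The deposited values were the fold enrichment (a ratio of coverage at the summit to the control level, with 1 added to both) and the −log10 of the p-value and of the q-value. The score that the authors deposited, a whole number taken from the q-value, was not used. Fold enrichment and rank refer to the list they come from and depend on its depth and control, so that where they are set side by side for 2 lists no difference is read from them. One comparison, of the H3K27ac lists at a common p, crossed lists. Which control the caller used was not given in the sources used here. The lists hold peaks with a −log10 q of at least 2, so that an unlisted stretch may still hold some signal.

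Peaks and genes (GENCODE M21, another release of the annotation of the same build) were joined with bedtools 2.31.1 and pandas 2.3.3. An overlap of at least 1 bp was enough for 2 peaks to be matched, and a peak was near a start when any of its bases lay within the stated distance of an annotated start. Depth is not given in the lists. Fragments at each summit were recovered from fold enrichment, in which MACS2 adds a pseudocount of 1 to both levels, and from p. MACS2 takes p from a Poisson distribution, and 1 scaling factor was fitted per library. All fragments of a library were estimated from the lowest common control level, this factor and a genome size of 1870000000 bp. The narrowest peak width stood for the fragment length, so these totals are approximate. The recovery returned the deposited p for at least 99.99% of the peaks of each list, and was tested on simulated data. Median summits held 9 and 11 fragments in the H3K27ac lists under LPS and PBS and 17 in both H3K4me1 lists. PCR copies are not independent molecules, so intervals cover counting error only.

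The genes and pathway lists were chosen with earlier results of these data known. Named one by one are the 5 genes, all H3K27ac peaks of the windows and the neighbouring genes that hold a named peak, all H3K4me1 peaks within 1 kb of a start of the 5 genes, and per list and window the 3 widest H3K4me1 peaks and the highest by −log10 q. For each pathway list up to 4 genes with most LPS H3K27ac peaks, and for each subunit gene the 2 nearest pathway genes, are named, ties in alphabetical order, and genes tied with the last are given after them. Some further H3K4me1 peaks, mainly those near the Rel and Nfkb1 starts and those in the Rela and Nfkb2 windows, were chosen after their values were seen. Alternatives were other windows, limits on q, fold or p, merging, and other overlaps.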

Additional observations from a re-analysis of the deposited data

How the results depend on the processing

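No paired analysis was possible because each antibody was used on 1 library per treatment. The order of the treatments in H3K4me1 peak number was not stable. Of 75 values that answer a comparison, computed under the alternatives, 52 stayed within the set range and 23 moved, and of the 130 values for single genes 94 stayed and 36 moved. With a −log10 q of at least 5 the windows held 5 LPS H3K27ac, 34 LPS H3K4me1 and 44 PBS H3K4me1 peaks. With 10 kb on each side in place of 50 kb they held 5, 37 and 44, and with 100 kb the H3K4me1 lists gave 108 and 102, more under LPS, where the main counts were 64 and 67. When peaks within 1000 bp were merged, the H3K4me1 lists gave 36 and 33, again more under LPS. Rel, with 18 and 16, gave 8 and 10 at the limit on q, and Nfkb1, with 27 and 32, gave 15 and 14 when merged. The share of LPS H3K4me1 peaks overlapped under PBS fell to 20.3% when 50% of both peaks had to be shared, and the reverse share was 17.9%. The reverse share was 47.7% with a −log10 q of at least 5 and 79.1% when peaks were extended by 500 bp. These shares are for the windows alone. The shares of the whole lists were not computed under these settings, so none of them can be read as particular to these genes. With the first annotated start alone, chosen as an alternative after seeing the data, 0 genes had an LPS H3K4me1 promoter peak instead of 1. Within 1 kb of a start, 13 pathway genes had LPS H3K27ac, 35 LPS H3K4me1 and 39 PBS H3K4me1. With a −log10 q of at least 5, 9 had LPS H3K27ac within 10 kb, and in the window of 50 kb 1 had PBS H3K27ac. The 2 genes with an LPS H3K27ac summit on each side of the start became 0 at the same limit on q or at a −log10 p of 6.91 or more, and 1 (Rel) with a fold enrichment of at least 5, settings chosen for this count after seeing the data. The count itself also describes a pattern seen in the data. The number of subunit genes with an LPS H3K27ac promoter peak was 3 under each alternative run. The smaller counts follow from fewer peaks or shorter windows. The H3K27ac summits of the windows held 7 to 19 fragments, so their order by size is uncertain.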

Other observations

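Beyond the windows, between 50 and 100 kb from the gene bodies, the LPS H3K27ac list held 3 more peaks, each at the start of another gene. One of 363 bp was 88.1 kb from the Rela start, in an intron of Ehbp1l1, with 13 fragments, rank 2219 of 4200. One of 231 bp was 105 kb from the Rel start, 179 bp inside Pex13, with 11 fragments, rank 2572. The last, of 148 bp, was 91.2 kb from the Nfkb2 start, 178 bp inside Actr1a, with 12 fragments, rank 1911, and was the acetylation nearest to Nfkb2 in the range examined. No H3K4me1 peak overlapped any of the 3.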
